A study of Mus musculus with 5 samples.

Results

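The insulin-like growth factor (IGF) system was examined in newborn mouse lung cells through 9 genes. They were the ligand gene Igf1, the receptor genes Igf1r, Igf2r and Insr, and the binding protein genes Igfbp3, Igfbp4, Igfbp5, Igfbp6 and Igfbp7. Members were all probe sets whose only gene symbol in the platform annotation was one of these, which gave 28 of the 45101 probe sets on the array. All 9 genes were represented, among 18194 genes with such a probe set.

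The cells were GFP-positive and were collected by flow cytometry after trypsin/EDTA dissociation of lungs at P2, that is postnatal day 2. The pups carried SPC-GFP and were born to SPC-GFP mice mated with the outbred ICR strain. There were 5 biological replicates in 1 group with 1 array each, and there was no second condition to set against it. Titles and source names call the cells alveolar type 2 cells, described as differentiating, whereas the design text of the series calls them ciliated cells. The labels do not say whether a replicate was 1 pup or a pool, and they describe the SPC-GFP transgene no further. The gene of surfactant protein C (SPC) is Sftpc.

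IGF1 and IGF2 are secreted growth factors that act through IGF1R, a receptor tyrosine kinase closely related to the insulin receptor INSR. IGF2R, also known as the cation-independent mannose 6-phosphate receptor, has no kinase; it carries IGF2 and lysosomal enzymes to lysosomes. The IGF binding proteins hold IGFs outside the cell, extend their life and limit or direct their access to the receptor, and IGFBP7 is a relative that binds IGFs weakly. In the developing lung, mesenchymal cells are known as a main source of IGF1, and mice without IGF1R have small, immature lungs.

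For orientation on regulatory sequence, the promoters of the 3 members with the widest range over the arrays (in the probe set of highest mean) are shown with that of Igf1r, whose range was narrower. The sequences are RefSeq's for GRCm38.p6, 5′ to 3′ on the gene's strand. Each runs from 250 bases before to 50 bases after the start used for the promoter. For Igf1 and Igfbp4 that start lies inside the annotated gene, downstream of its first base. Capitals mark matches, on either strand, to 4 short motifs. These were the TATA box, spelled TATAAA, the CCAAT box, the GC box, spelled GGGCGG, and the core of FOXO sites, spelled GTAAACA. No letter belongs to more than one of these motifs in the 4 promoters.
Igf1 (chr10:87860861-87861160, plus strand): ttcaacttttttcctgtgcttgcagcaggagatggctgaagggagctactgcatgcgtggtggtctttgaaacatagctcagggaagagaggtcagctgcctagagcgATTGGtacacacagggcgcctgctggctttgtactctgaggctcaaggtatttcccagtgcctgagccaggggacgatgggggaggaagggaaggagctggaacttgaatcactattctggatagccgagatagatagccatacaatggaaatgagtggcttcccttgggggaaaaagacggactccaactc
Igfbp4 (chr11:99040994-99041293, plus strand): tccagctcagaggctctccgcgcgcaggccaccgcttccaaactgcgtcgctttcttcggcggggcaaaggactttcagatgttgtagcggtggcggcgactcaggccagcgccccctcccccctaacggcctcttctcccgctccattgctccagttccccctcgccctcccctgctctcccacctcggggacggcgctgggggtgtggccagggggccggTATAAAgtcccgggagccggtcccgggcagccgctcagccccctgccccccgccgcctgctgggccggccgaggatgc
Igfbp5 (chr1:72874816-72875115, minus strand): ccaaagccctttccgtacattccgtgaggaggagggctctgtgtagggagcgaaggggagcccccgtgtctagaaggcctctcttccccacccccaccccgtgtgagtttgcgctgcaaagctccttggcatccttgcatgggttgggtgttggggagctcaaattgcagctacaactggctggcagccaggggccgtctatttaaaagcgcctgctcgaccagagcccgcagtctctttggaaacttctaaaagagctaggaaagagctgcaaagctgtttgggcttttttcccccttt
Igf1r (chr7:67952007-67952306, plus strand): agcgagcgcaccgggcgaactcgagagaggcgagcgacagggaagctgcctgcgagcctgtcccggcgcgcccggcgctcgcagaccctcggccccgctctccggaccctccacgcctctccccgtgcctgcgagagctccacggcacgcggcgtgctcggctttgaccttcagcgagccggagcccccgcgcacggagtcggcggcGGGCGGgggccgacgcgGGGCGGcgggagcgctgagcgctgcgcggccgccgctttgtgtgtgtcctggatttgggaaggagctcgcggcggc

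The table held a promoter for 8 of the 9 members. That of Igfbp4 has a TATAAA at -28 from the start and a GC content of 71.3%. The Igf1 window has 1 CCAAT motif, on the other strand at -142, and a GC content of 52.3%. In the Igfbp5 window none of the 4 motifs is spelled out, at a GC content of 56.3%. Igf1r has 2 GC boxes and a GC content of 76.0%, with 48 CpG dinucleotides against 6 in the Igf1 window. Among 32851 promoter windows of this length, the TATA box letters occur in 13.6%, the CCAAT letters in 37.4%, the GC box letters in 35.7% and the FOXO core letters in 3.6%, and the median GC content is 52.7%. Igfbp7 has 4 GC boxes and Igf2r 3, while none of the 8 has a GTAAACA match. These matches describe letters in the window and no binding was measured.

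Values are log2 signals as deposited, and means are followed by ± SD of the 5 arrays (n = 5). The number of arrays limits their precision, and p-values reflect the variation among these samples only. A probe set's brightness depends on its own probes, so levels are compared between arrays and with background, and not between probe sets. Background was the 95th percentile, on each array, of 85 probe sets of olfactory, vomeronasal, taste and trace amine receptor genes. It averaged 5.45. Array medians lay between 7.12 and 7.19. Markers of alveolar type 2 cells were far above background (Sftpc 14.67 ± 0.05, Sftpb 14.13 ± 0.08, Sftpa1 14.71 ± 0.04), and so were all 10 of the listed markers. The 10 ciliated markers were also all above it, with Foxj1 at 7.91 ± 0.61, Ccdc39 at 9.75 ± 0.51 and Rsph1 at 9.33 ± 0.79. Both lists lay above background, as did 74.9% of genes in the test described below. The median SD between replicates was 0.075 for the alveolar type 2 markers, some of which lie near the top of the scale (15.24), and 0.665 for the ciliated markers.

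Replicates 1 and 3 stood apart from the others. Of the 10 ciliated markers, 9 were highest in replicate 1. Lowest in replicate 3 were 11 of the 13 fibroblast markers above background and 11 of the 12 leukocyte markers. The mean levels of the ciliated, smooth muscle and endothelial lists were lowest in replicate 3 too. The 3′ to 5′ difference of the Actb control probe sets, a sign of RNA quality, was 0.845 in replicate 3 and 0.542 to 0.599 in the others. That of Gapdh was 1.68 there and 1.27 to 1.60 elsewhere. Where leaving out either of these replicates changed a member's printed range by over 1.5 times, the range without it is given as well.

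Of the 28 member probe sets, 27 lay above background (limma, one-sided moderated test, Benjamini-Hochberg adjusted p under 0.05), against 72.3% of all 34873 probe sets tested. With 1 probe set per gene, that of highest mean, 9 of 9 members were called, against 74.9% of genes. The median distance above background was 3.40 log2 units for the members and 2.48 for all probe sets tested. Among only those called above background it was 3.45 for members and 3.83 for all. With 1 probe set per gene, the brightest of each, it was 5.24 for members and 3.42 for all genes tested. The member probe set that was not called was 1 of the 3 of Insr. A stricter background from genes restricted to other organs left 19 of the 28, against 51.1% of all probe sets, and both probe sets of Igfbp3 lay below it. With the 99th percentile as background 24 were called, against 61.8% of all.

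**Figure D1:**
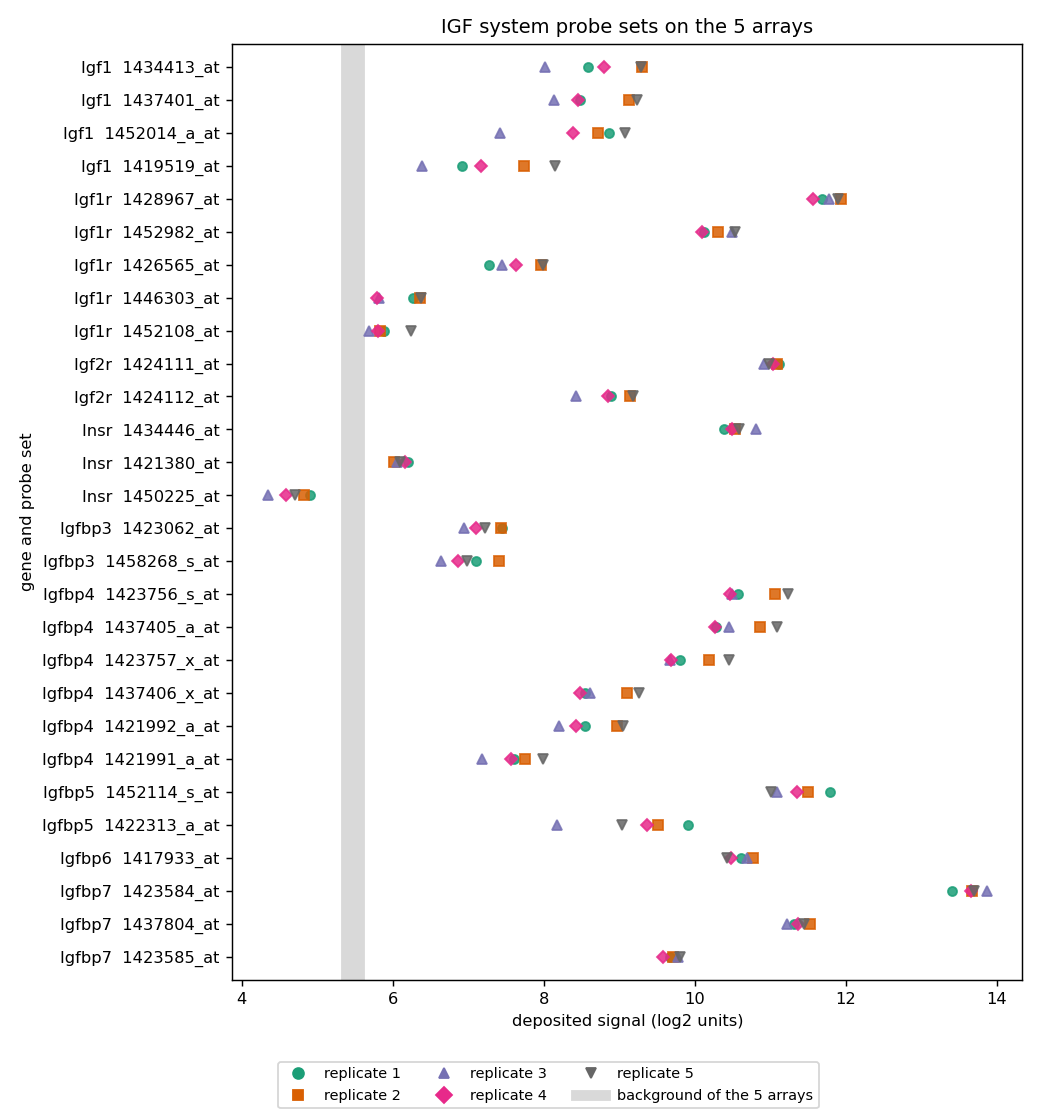
Deposited signal in log2 units (x axis) of the 28 member probe sets (rows, grouped by gene) on the 5 arrays (symbols); the grey band spans the 5 arrays' backgrounds. Insr 1450225_at lies left of the band, and the 4 Igf1 probe sets have replicate 3 (triangles) as their lowest value.

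Igf1, the growth factor gene, was above background and varied more between replicates than most probe sets of its signal. Probe set 1434413_at, its brightest, read 8.58, 9.30, 8.02, 8.80 and 9.29 in replicates 1 to 5 (8.80 ± 0.53, limma adjusted p = 7.69e-12 against background). Replicates 2 and 5 were high and replicate 3 low, and the arrays spanned 1.28 log2 units (2.43-fold). The SD was larger than that of 94.8% of the 3651 probe sets within 0.5 log2 units of its mean. Without replicate 3 the range was 0.72.

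The other 3 Igf1 probe sets had replicate 3 lowest too. Probe set 1437401_at read 8.49, 9.13, 8.13, 8.45 and 9.24 in replicates 1 to 5. Probe set 1452014_a_at read 8.87, 8.71, 7.43, 8.39 and 9.07 (range 1.65, and 0.68 without replicate 3). The dimmest, 1419519_at, read 6.92, 7.73, 6.39, 7.16 and 8.15 and lay below the organ-restricted background. Replicate 5 was highest in 3 of the 4 and replicate 2 in the brightest. Averaged over the 4, Igf1 spanned 1.44 log2 units, or 2.72-fold, and 0.73 without replicate 3. The probe sets differed on replicate 1, which was second highest in 1452014_a_at and second lowest in 1434413_at and 1419519_at.

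Among the receptors, Igf1r had ranges of 0.38 and 0.44 log2 units in its 2 brighter probe sets. Probe set 1428967_at read 11.69, 11.94, 11.78, 11.56 and 11.89 in replicates 1 to 5 (11.77 ± 0.15). The 5 arrays lay within 0.38 log2 units, or 1.30-fold (0.25 without replicate 4), and the SD exceeded that of 74.0% of probe sets of like signal. Probe set 1452982_at, at 10.31 ± 0.20, had the same replicate lowest (replicate 4). Probe set 1426565_at read 7.27, 7.97, 7.45, 7.63 and 7.99, with replicate 1 lowest. The remaining 1446303_at (6.12 ± 0.29) and 1452108_at (5.89 ± 0.21) were only 0.67 and 0.44 log2 units above background (limma adjusted p = 0.000348 and 0.00316), and neither was called with the 99th percentile as background. Replicate 5 was highest in 4 of the 5 probe sets.

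Igf2r, the clearance receptor of IGF2, had the narrowest range of the 9 members in its brightest probe set. Probe set 1424111_at read 11.11, 11.09, 10.92, 11.04 and 10.99 in replicates 1 to 5 (11.03 ± 0.08); they lay within 0.19 log2 units, and within 0.12 without replicate 3. Its SD was larger than that of only 18.2% of probe sets of like signal. The other probe set, 1424112_at, read 8.89, 9.14, 8.42, 8.86 and 9.19 and so spanned 0.77 log2 units (1.70-fold), or 0.33 without replicate 3. Both had their lowest value in replicate 3, and they differed in the width of the range, with and without it, and in the highest replicate.

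Insr, the insulin receptor gene, was bright in a single probe set. Probe set 1434446_at read 10.38, 10.53, 10.81, 10.49 and 10.59 in replicates 1 to 5 (10.56 ± 0.16). Replicate 3 was highest and replicate 1 lowest, and the range of 0.43 was 0.21 without replicate 3. Probe set 1421380_at averaged 6.11 ± 0.08, with an SD below that of most probe sets of its signal (percentile 1.97), and was not called at the 99th percentile. Probe set 1450225_at read 4.91, 4.82, 4.35, 4.59 and 4.70 and averaged -0.78 log2 units from background, that is below it (limma adjusted p = 1). The level of Insr thus rested on 1434446_at, and the 3 probe sets had different highest and lowest replicates except that 2 were highest in replicate 1.

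The binding protein genes differed in which arrays were high or low. Igfbp3, the main carrier of IGFs in blood, was moderate in signal. Probe set 1423062_at read 7.44, 7.44, 6.95, 7.11 and 7.22 in replicates 1 to 5 (7.23 ± 0.22). Probe set 1458268_s_at read 7.10, 7.40, 6.64, 6.86 and 6.98 (SD 0.28). Replicate 3 was lowest in both, and replicates 1 and 2 were the highest 2 in both. The SDs stood at the percentiles 39.1 and 58.5 among probe sets of like signal, so Igfbp3 varied about as most such probe sets did.

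Igfbp4, whose product is cut by the protease pregnancy-associated plasma protein A (Pappa) to release IGF, had the same highest replicate in all of its probe sets. The brightest, 1423756_s_at, read 10.57, 11.07, 10.50, 10.46 and 11.23 in replicates 1 to 5 (10.76 ± 0.36). Replicates 2 and 5 stood above the other 3, which lay between 10.46 and 10.57. That replicate was number 5 in 6 of 6, and 3 were lowest in replicate 4 and the other 3 in replicate 3. Ranges ran from 0.77 to 0.84 log2 units. That of 1421991_a_at was 0.81, or 0.42 without replicate 3, and that of 1423757_x_at was 0.78, or 0.51 without replicate 5. The mean of the 6 spanned 0.74, or 1.67-fold, and 0.55 without replicate 5. SDs exceeded those of 66.2% to 95.2% of probe sets of like signal. Of the 6, 3 carry an s or x in their name, as types that can hybridise to related transcripts, and the other 3 had the same highest replicate.

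Igfbp5, a binding protein that is held in the extracellular matrix, went another way. Probe set 1452114_s_at read 11.79, 11.50, 11.09, 11.35 and 11.01 in replicates 1 to 5 (11.35 ± 0.32). Probe set 1422313_a_at read 9.91, 9.51, 8.18, 9.37 and 9.03 (9.20 ± 0.65), which is 3.34-fold from lowest to highest (1.74 log2 units). Without replicate 3 its range was 0.88. Replicate 1 was highest and replicate 2 second in both, while the lowest was replicate 5 in the first and replicate 3 in the second. The SD of 1422313_a_at was larger than that of 98.0% of 3770 probe sets of like signal, the highest percentile among the 28. Without replicate 1 the range of 1452114_s_at was 0.49, against 0.78 with it.

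Igfbp6, which prefers IGF2 as its ligand, had 1 probe set. It read 10.61, 10.77, 10.69, 10.47 and 10.43 in replicates 1 to 5 (10.59 ± 0.14), all within 0.34 log2 units. Its SD stood near the middle for its signal, at the percentile 52.8.

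Igfbp7 differed by probe set. Probe set 1423584_at read 13.41, 13.67, 13.86, 13.66 and 13.70 in replicates 1 to 5 (13.66 ± 0.16), with replicate 1 lowest and replicate 3 highest. Its range of 0.45 was 0.20 without replicate 1 and 0.29 without replicate 3. The SD was larger than that of 96.1% of the 542 probe sets of like signal, which are few and close to the top of the scale. The other probe sets gave 11.32, 11.52, 11.22, 11.37 and 11.44 (1437804_at) and 9.67, 9.71, 9.78, 9.58 and 9.80 (1423585_at). In these the highest replicates were 2 and 5, and the SDs were at the percentiles 47.4 and 15.5, so the wide spread of the brightest probe set was not seen in them.

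**Figure D2:**
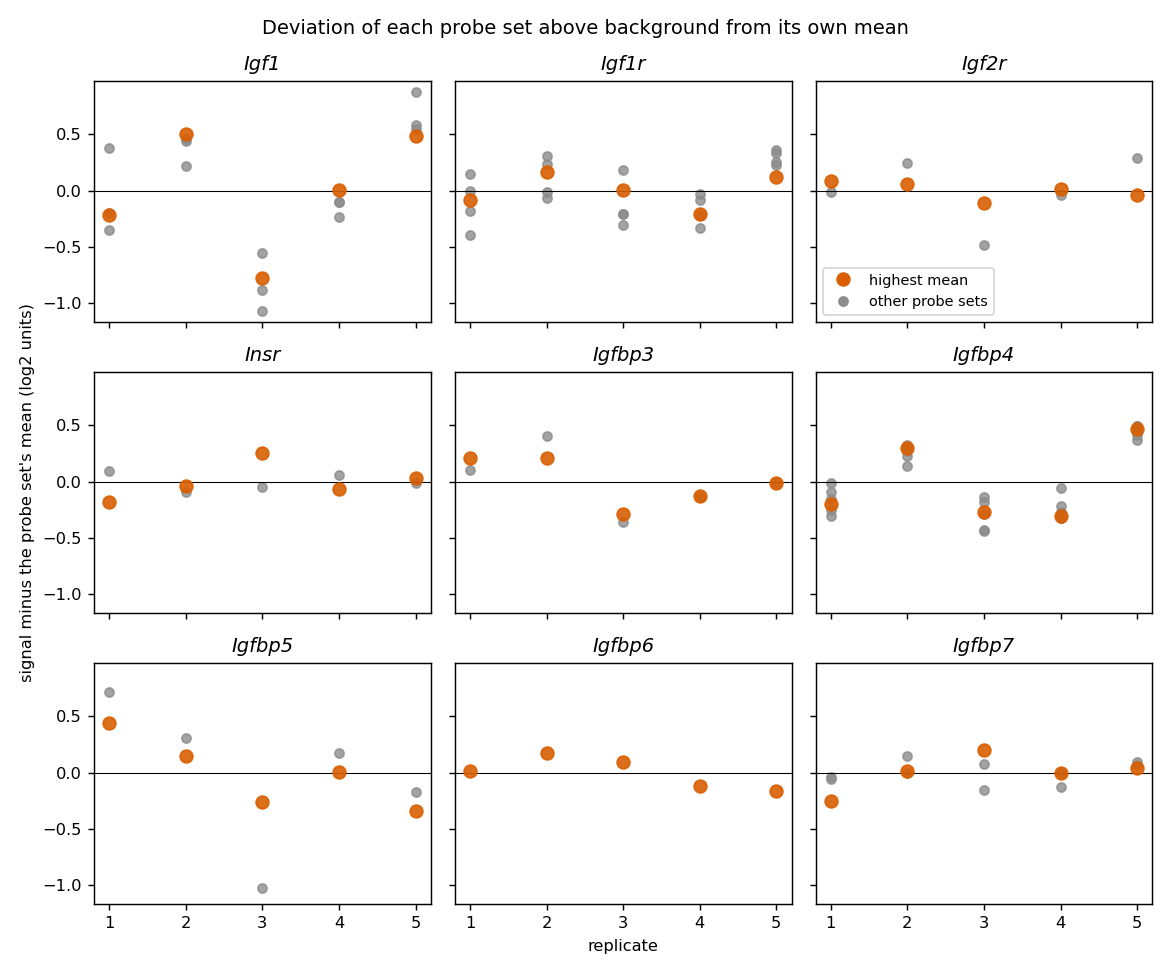
Signal minus the probe set's own mean over the 5 arrays (y axis, log2 units) by replicate (x axis), a panel per gene; each point is a probe set above background, orange for that of highest mean and grey for the others. Igf1 and Igfbp4 are high in replicates 2 and 5, and Igfbp5 is highest in replicate 1.

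The spread of each probe set was set against that of others of its signal. The variance over the 5 arrays was divided by limma's fitted variance at that signal, and a one-sided F test was applied. After Benjamini-Hochberg adjustment 0 of 28 member probe sets passed, against 0 (0%) of all 34958 probe sets with 1 symbol. In simulated data the adjusted test called only 9% of probe sets with SD raised 5 times, so this result does not show an ordinary spread. At an unadjusted p under 0.05, 7 of the 28 members (25.0%) passed, against 5.47% of all. They were 3 probe sets of Igf1, 2 of Igfbp4 and both of Igfbp5. Probe sets of 1 gene measure the same transcripts and are not independent, so by gene the count was 3 of 9 (Igf1, Igfbp4 and Igfbp5) for highest-mean probe sets, against 6.62% of genes. These counts turned on single arrays. Without replicate 5 the count was 4 of 28, in Igf1, Igfbp5 and Igfbp7, against 1845 of all 34958. Without replicate 3 it was 5, in Igf1, Igfbp4 and Igfbp5, against 1991. Without replicate 1 it was 8, in Igf1, Igfbp4 and Igfbp5, against 1883. Without replicate 2 it was 8 and without replicate 4 it was 9, against 1873 and 1815. Both of these counts were in Igf1, Igfbp4, Igfbp5 and Igfbp7. Among highest-mean probe sets alone, those of Igf1 and Igfbp7 passed without replicate 5. Those of Igfbp4 and Igfbp5 passed without replicate 3, and those of Igf1 and Igfbp4 without replicate 1. Those of Igf1, Igfbp4, Igfbp5 and Igfbp7 passed without replicate 2 and without replicate 4. Igfbp5 1422313_a_at had an unadjusted p of 0.0100 in the F test with all arrays and 0.0574 without replicate 3. The smallest adjusted p among members was 0.782, for Igfbp5 1422313_a_at. The median SD was 0.294 over the 28 member probe sets and 0.184 over all tested, and 0.162 over the 9 highest-mean ones and 0.171 over all genes.

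**Figure D3:**
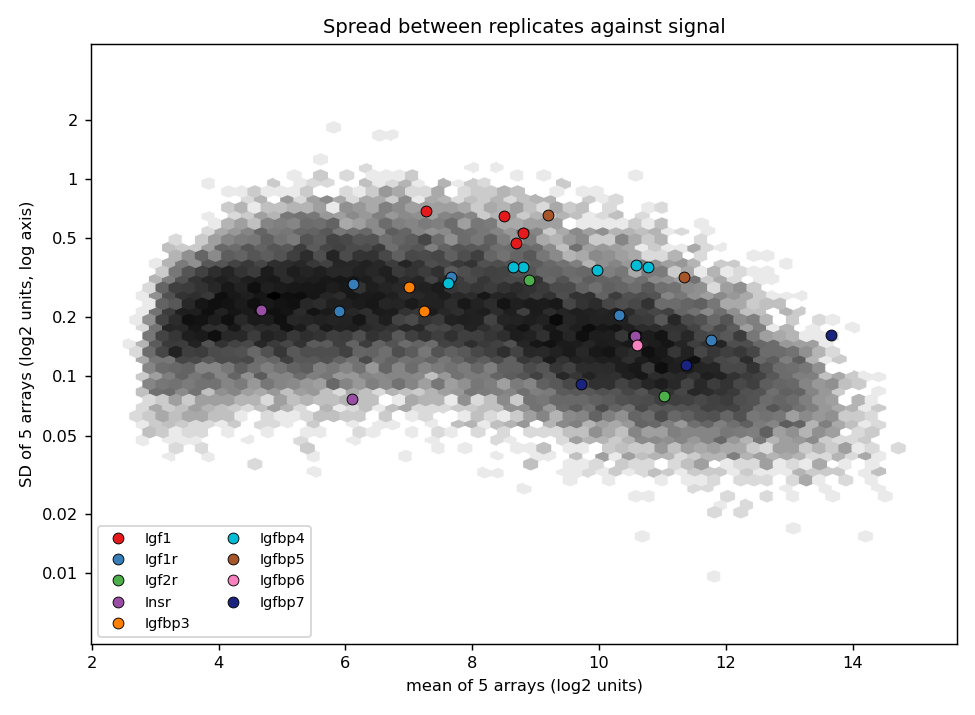
SD over the 5 arrays (y axis, log scale) against mean signal (x axis, log2 units); grey cells count all probe sets with 1 symbol, darker for more, and coloured points are the 28 member probe sets. The Igf1 points, the bright Igfbp4 points, the Igfbp5 points and the brightest Igfbp7 point lie toward the upper edge of the cloud at their signal, while Igf2r 1424111_at and Insr 1421380_at lie low.

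Replicate 3 was the lowest array for 15 of the 28 member probe sets (53.6%) and for 26.7% of all probe sets tested. Replicate 5 was the highest for 15 of the 28 (53.6%), against 20.01% of all. By gene, 3 of the 9 highest-mean probe sets (33.3%) were lowest in replicate 3 (Igf1, Igf2r and Igfbp3), against 26.7% of all genes. Replicate 5 was highest for 1 of the 9 (Igfbp4, 11.1%), against 20.5% of all genes. The root mean square difference of centred values over the 5 arrays, a measure of unlikeness between profiles, was smallest among the 36 pairs of members for Insr and Igfbp7 (0.054). It was largest for Igf1 and Insr (0.559). Igf1 was closest to Igfbp4 (0.281).

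The members were set beside cell type markers, since a sorted population can hold RNA of other cells; fewer cells of a type and less RNA per cell cannot be told apart here. For a marker list, the score of an array averages the deviations of its above-background genes, each from the gene's own mean, less the array's median of such deviations over all genes above background; the members' own deviations are not adjusted so. Fibroblast markers (13 of 14 above background, Lum the exception at 5.42 ± 0.94) scored 0.03, 0.34, -0.58, -0.11 and 0.32 in replicates 1 to 5. Smooth muscle and myofibroblast markers (8 of 8) scored -0.19, 0.28, -0.52, 0.05 and 0.39. Igf1 deviated from its mean by -0.22, 0.50, -0.78, 0.00 and 0.49, so that the same arrays were high and low. Igfbp4 deviated by -0.20, 0.30, -0.27, -0.30 and 0.46, with replicates 2 and 5 high as well.

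The fibroblast genes Col1a1, Col1a2 and Col3a1 averaged 12.96 ± 0.22, 12.62 ± 0.41 and 13.04 ± 0.31, and the mean level of the list ran from 10.02 to 11.03 over the arrays. Acta2, Tagln and Myh11, contractile genes of smooth muscle, averaged 12.48 ± 0.43, 11.62 ± 0.53 and 8.77 ± 0.49. Leukocyte markers (12 of 12) scored 0.02, 0.05, -0.60, 0.21 and 0.33, with Ptprc at 9.36 ± 0.30, Laptm5 at 12.10 ± 0.36 and Csf1r at 12.30 ± 0.28. Of the 12, 11 were lowest in replicate 3, as Igf1 was; Csf1r was not, at 12.54 there and 11.95 in replicate 1, its lowest. Macrophages are known to make IGF1 as well. The part of fibroblast, muscle or leukocyte RNA in the Igf1 and Igfbp4 ranges was not tested.

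Igfbp5 deviated by 0.44, 0.15, -0.26, 0.00 and -0.34 (1452114_s_at). Ciliated markers scored 1.02, 0.30, -0.54, -0.37 and -0.40 in the same arrays, with replicates 1 and 2 high in both. The bacterial bioB and bioC hybridisation control probe sets averaged 12.40 in replicate 1, against 11.48 to 11.61 in the others, so replicate 1 was also bright in a measure that holds no lung RNA. The part of either in the Igfbp5 pattern was not tested.

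Igfbp7 (1423584_at) deviated by -0.25, 0.01, 0.20, 0.00 and 0.04, and Insr (1434446_at) by -0.18, -0.04, 0.25, -0.07 and 0.03. Alveolar type 1 markers (10 of 10) scored -0.21, 0.10, 0.13, -0.09 and 0.07, with replicate 1 lowest and replicate 3 highest as in these 2 probe sets. The other probe sets of both genes that lay above background had other highest and lowest arrays. Ager, Pdpn and Hopx of the alveolar type 1 list averaged 14.68 ± 0.02, 13.24 ± 0.09 and 13.26 ± 0.12. The genes of that list did not all follow its score. Hopx was lowest in replicate 1 and highest in replicate 3, whereas Ager was lowest in replicate 4. Pdpn was highest in replicate 4 and lowest in replicate 5. Endothelial markers (12 of 12), of cells in which Igfbp7 is known to be abundant, scored 0.09, -0.12, -0.15, 0.02 and 0.17. Pecam1, Cdh5 and Kdr averaged 9.82 ± 0.17, 10.10 ± 0.13 and 10.47 ± 0.14. Replicate 3 was lowest for the endothelial list, as it was for Igfbp7 1437804_at, whereas Igfbp7 1423584_at was highest there. The part of these cells in the values was not tested.

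Mesothelial markers, of the lung's outer lining, scored -0.02, 0.39, -0.22, 0.33 and -0.48, over 4 of 8 genes above background. Wt1 (5.52 ± 0.64), Lrrn4 (4.56 ± 0.13), Muc16 (4.58 ± 0.78) and Bnc1 (4.77 ± 0.68) were not called, whereas Msln had 11.73 ± 0.18 and Upk3b 8.40 ± 0.94. Igfbp6 deviated by 0.02, 0.18, 0.09, -0.12 and -0.17 and had its highest value in replicate 2 and its lowest in replicate 5, as the list score did. In replicates 1, 3 and 4 Igfbp6 and the list score had opposite signs. The 4 mesothelial genes above background differed among themselves. Gpm6a, named after its values were seen, read 11.32 in replicate 2 and at most 10.05 elsewhere, and Upk3b was highest in replicate 4 (9.46) and lowest in replicate 5 (7.02). The part of mesothelial RNA in the Igfbp6 values was not tested. Alveolar type 2 scores ran from -0.10 to 0.09. Club cell markers (6 of 6; Scgb1a1 14.50 ± 0.09, Scgb3a2 14.31 ± 0.10, Cyp2f2 13.16 ± 0.14) scored -0.17, 0.23, -0.02, 0.07 and -0.10. Of the red cell precursor markers, 3 of 4 measured were above background (Alas2 9.37 ± 0.40, Slc4a1 8.30 ± 0.75, not Epb42 at 4.80 ± 0.37) and the list scored 0.30, -0.17, -0.23, 0.37 and -0.26.

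**Figure D4:**
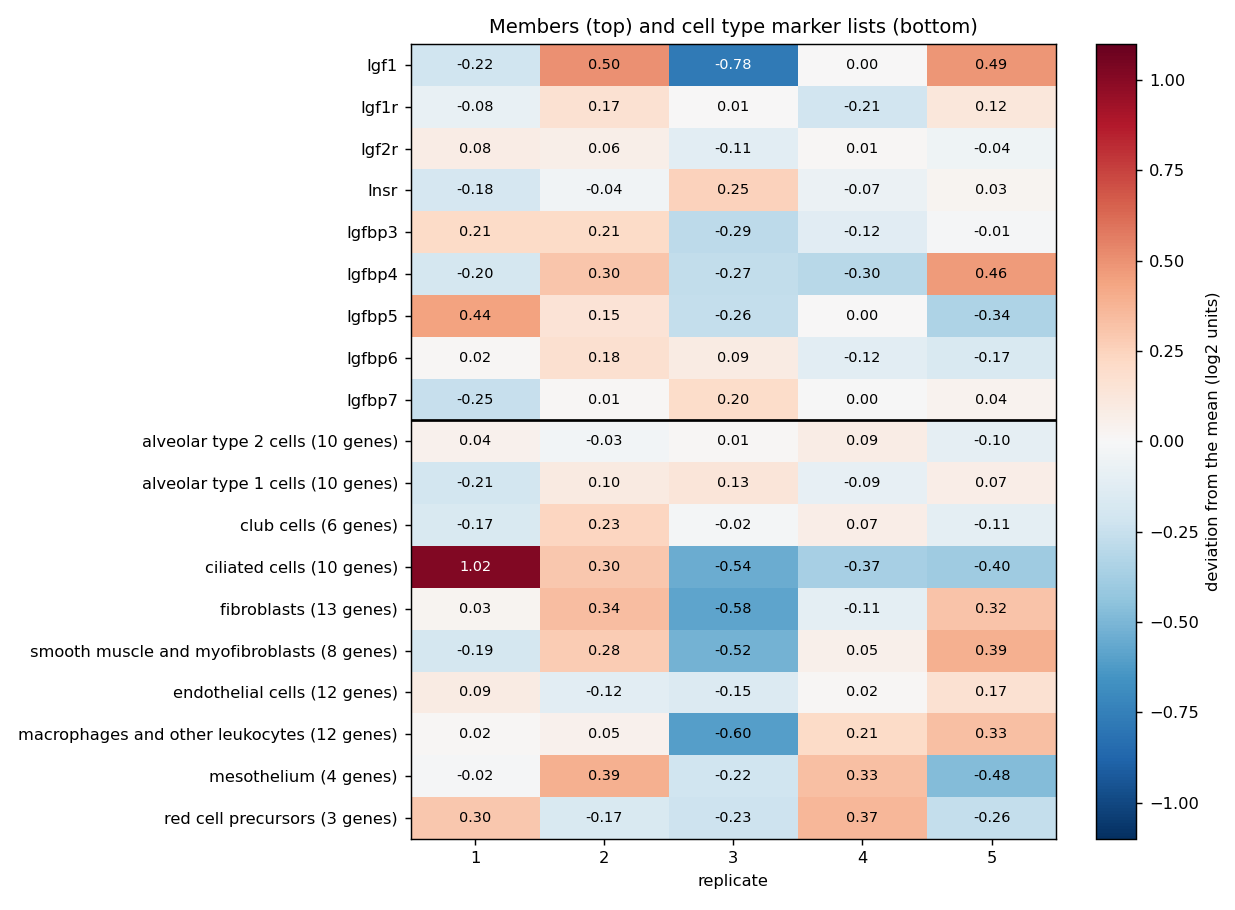
Deviation from the mean over the 5 arrays in log2 units (colour and printed value) by replicate (columns), for the highest-mean probe set of each member (rows above the line) and the scores of 10 marker lists (rows below, with the number of genes above background; the scores alone are less the median of all genes). Igf1, Igf2r and Igfbp3 have replicate 3 as their lowest value, as do the ciliated, fibroblast, muscle, endothelial and leukocyte lists.

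Genes with the most similar profile were sought for the 3 members with the widest range, among 13683 other genes above background, by the root mean square difference of centred values over the 5 arrays. For Igf1 these were Cntn4 (0.059), P3h3 (0.085), Trabd2b (0.098), Myh11 (0.098) and Acta2 (0.115), the last 2 being in the smooth muscle list. Myh11 read 8.66, 9.16, 7.98, 8.88 and 9.15 in replicates 1 to 5. For Igfbp4 they were Tril (0.031), Ltbp4 (0.051), Col13a1 (0.052), Spon1 (0.052) and Slc27a3 (0.055). Tril read 10.75, 11.25, 10.73, 10.71 and 11.48. For Igfbp5 they were Plch1 (0.053), Rpl14 (0.057), AI593442 (0.058), Fam216a (0.059) and A930007A09Rik (0.063). The names are a description of 5 arrays, with no test.

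Of the remaining ligand, binding protein and carrier genes, 4 of 5 were above background, against 74.9% of genes with 1 probe set per gene. The means of 3 exceeded the organ-restricted background. Igf2, the second IGF, read 12.06, 12.07, 11.61, 11.86 and 11.91 in replicates 1 to 5 (11.90 ± 0.18), with replicate 3 lowest as for Igf1. Igfbp2 averaged 11.22 ± 0.29 and was lowest in replicate 1. Igfals, the acid-labile subunit that forms a complex with IGFBP3 or IGFBP5 in blood, averaged 8.39 ± 0.39. Igfbp1 averaged 6.39 ± 0.18, and Igfbpl1, at 5.33 ± 0.28, was not above background (limma adjusted p = 1).

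Proteases that cut IGF binding proteins and their inhibitors were above background in 8 of 8 genes, against 74.9% of all genes. The means of 5 exceeded the organ-restricted background. Pappa2, a protease of IGFBP3 and IGFBP5, read 7.23, 7.18, 6.07, 7.24 and 7.11 in replicates 1 to 5 (6.97 ± 0.50), with replicate 3 alone low. Mmp2, a gelatinase that can cut IGF binding proteins, read 10.99, 11.45, 10.71, 10.66 and 11.69, with replicates 2 and 5 high as in Igfbp4. Unadjusted p was under 0.05 in the F test of spread for 2 of the 8, against 6.62% of genes.

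Adapters and kinases downstream of the insulin and IGF receptors were above background in 31 of the 31 listed genes analysed here. The share of all genes was 74.9%, and the means of 30 of the 31 exceeded the organ-restricted background. Their median SD between replicates was 0.108, against 0.171 over all genes, a comparison that was not matched for signal. In the F test of spread 0 of 31 had an unadjusted p under 0.05, against 6.62% of genes. That test allows for signal but is one-sided for wide spread, so it does not show a low one. The widest ranges were those of Tsc1, an inhibitor of mTOR signalling (10.49, 10.78, 11.06, 10.62 and 10.89), and Irs1, the adapter that both receptors phosphorylate (11.77, 11.23, 11.42, 11.73 and 11.56). The list score spanned 0.125 log2 units, or 1.09-fold, and was highest in replicate 3, where Igf1 was lowest.

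Among relatives of the receptors and partners of IGF2R, 4 of 6 were above background, against 74.9% of all genes. The means of 4 exceeded the organ-restricted background. Insrr, the insulin receptor-related receptor gene, averaged 5.59 ± 0.29 (limma adjusted p = 0.249) and the plasminogen gene Plg 4.73 ± 0.17 (adjusted p = 1), and neither was called. Lrp1, an endocytic receptor, read 9.71, 10.08, 9.51, 9.89 and 10.36 and Plaur, the urokinase receptor gene, 8.95, 8.39, 8.01, 8.77 and 8.74. Replicate 3 was lowest in both.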

How the data were processed

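Total RNA of 5 samples was amplified and biotin-labelled (NuGEN) for Affymetrix arrays read in one colour, per the labels' protocols. The deposited values are log2 signals, a base inferred from their range (2.46 to 15.24); the authors' software, background correction and normalization: not given in the sources used here. Probe sets were named by a platform annotation of 2016: of 45101, 34958 had 1 symbol, 932 several and 9211 were unnamed here. Only those with 1 symbol were used. No scanner files or build of the probes were used, so saturation was not checked.

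Values minus each array's background (95th percentile of 85 receptor probe sets, of which 4 were themselves called) entered an intercept-only model in limma (version 3.58.1, under R 4.3.3, with a mean-variance trend), tested one-sided and adjusted over all probe sets outside that set. Spread was tested with an F test of each variance over limma's fitted variance (trend, robust; 4.62 prior degrees of freedom). A gene's probe set of highest mean stood for it in lists. In simulated data of 34873 probe sets the background test called 63% of probe sets 0.5 and 100% of those 1 log2 unit above background, and in 34958 the spread test called 9% of those with SD raised 5 times and 89% of those raised 20 times.

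Members, lists and tests were chosen with earlier results of these data known. Named were all members, every gene of the ligand list, the genes of other IGF lists below background (5 or fewer) and the 2 of widest range in each, the first 3 markers of each list and those below background, and the 5 closest profiles of 3 members. Alternatives were other backgrounds and percentiles (90 and 99), normalizations, probe set choices and left-out replicates. RefSeq promoters were searched by exact match.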

Additional observations from a re-analysis of the deposited data

Results flagged for a closer look

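Among 90 values examined (28 member probe sets, 48 named genes of the lists and 14 list scores), 5 had 1 array set apart from the other 4, where the gap to the nearest array was over 0.71 of the whole range. Chance gives about 1 such value in 20, and none of the 5 was a member. Pappa2, the IGF binding protein protease gene, had replicate 3 low (6.07 there, 7.11 to 7.24 in the others), a gap of 0.891 of its range. Lum had replicate 3 low (3.79, with 5.61 to 6.16 in the others) and a gap of 0.769. Plg, which was below background, had replicate 3 low with a gap of 0.797. Igfbp1 had replicate 5 high (6.70, with 6.27 to 6.38 in the others) and a gap of 0.734. Gpm6a, a marker of the mesothelial list, had replicate 2 high (11.32, with 9.54 to 10.05 in the others) and a gap of 0.717.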

How the results depend on the processing

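No paired analysis was possible because there is 1 group. The count of 27 of 28 member probe sets above background was the same with the 90th percentile, quantile normalization, median centring, limma without trend, each replicate left out, and replicates 1 and 3 left out together (an alternative chosen after seeing the data). It was 24 with the 99th percentile, 19 with organ-restricted genes, 22 of 23 without s and x probe sets, and 9 of 9 with 1 probe set per gene, where 13563 probe sets of 18117 were called in all, since fewer were tested. With organ-restricted genes the distance from background turned negative for Igf1 1419519_at (-0.24), Igf1r 1446303_at (-1.38) and 1452108_at (-1.62), Insr 1421380_at (-1.40), and Igfbp3 1423062_at (-0.28) and 1458268_s_at (-0.51). With the 99th percentile it did so for Igf1r 1446303_at (-0.27) and 1452108_at (-0.50) and Insr 1421380_at (-0.28). With organ-restricted genes Igf1r 1426565_at (0.15, limma adjusted p = 0.318) and Igfbp4 1421991_a_at (0.11, adjusted p = 0.465) lost the call. The spread test called 0 member probe sets under each alternative. When single replicates were left out, 4 to 9 of the 28 had an unadjusted p under 0.05 in that F test. The matching counts over all 34958 probe sets were 1815 to 1991. After adjustment the spread test called 0 to 4 of all probe sets when single replicates were left out. Without replicates 1 and 3 together it called 1. The cause was not tested. Ranges of members moved by over 1 SD in 12 of the recomputed values; Igf1's was 0.50 without replicates 1 and 3. Signals near background limit Insr 1421380_at and the dimmer Igf1r probe sets, and those near the top of the scale limit Igfbp7 1423584_at.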
